A study of Mus musculus with 10 samples.

Results

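The left ventricle (LV) and a skeletal muscle (SkM) of the same mice were compared across all genes, with each LV library paired with the SkM library of its mouse. The comparison used all 10 of the 10 libraries of the series, 5 LV and 5 SkM from 5 mice, chosen by the tissue and the mouse number in their names and by no measured value. The files list 23337 genes, of which 13283 had enough counts to be tested over 5 pairs.

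The study deleted E0, a conserved element in intron 1 of Ttn, the gene of the giant sarcomere protein titin, with CRISPR/Cas9. The question here was which genes the ventricle and the skeletal muscle of a mouse share and which they do not. The WT group was 2 mice and the E0del/+ group, heterozygous for the deletion, was 3 mice. All 5 were hybrids of C57BL/6 E0del/+ and 129SvEv WT parents, aged 17 weeks and of both sexes, and no other allele or agent is named for either group. Which skeletal muscle was taken is not given in the sources used here. Poly(A) RNA was extracted with TRIzol and made into unstranded Nextera XT libraries, 1 for each tissue and mouse. Total counts ranged from 11010021 to 15361520 in LV (median 11463197, n = 5) and from 13892390 to 17484873 in SkM (median 15009186, n = 5). The counts were spread over fewer genes in SkM, where the 10 most abundant genes held 27.2% to 29.5% of all counts, against 12.5% to 14.5% in LV. The files list 0 genes of the mitochondrial chromosome.

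Some libraries stood apart. The LV library of WT replicate 2 held counts of skeletal muscle genes. Its 8 markers of fast skeletal muscle summed to 28547 CPM, counts relative to the library's total, against 116 to 135 in the other 4 LV libraries. Its correlation with the SkM libraries across genes was 0.824 to 0.866, against 0.708 to 0.773 for the other LV libraries, where genes are not independent replicates. Most log2 differences are therefore given with 5 pairs and again with 4 pairs, without this mouse, where 13375 genes were tested. Counts of called genes given once are from 5 pairs, and some differ with 4 pairs. The SkM library of WT replicate 1 held 380 counts of Y-linked genes beside 5514 of Xist, where the SkM libraries of the other Xist-expressing mice held 83 and 140 counts of Y-linked genes. It was not alone per depth, since it held 27.4 CPM of Y-linked genes and the LV of E0del/+ replicate 2 held 23.8 CPM, from 262 counts beside 8870.0 of Xist. WT replicate 2 and E0del/+ replicate 3 held between 2459 and 2827 Y-linked counts in both tissues.

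Striated muscle contracts by sliding myosin over actin filaments in sarcomeres, and heart and skeletal muscle build these from partly different members of the same gene families. The heart beats without rest on fatty acids, lactate and other fuels burned in mitochondria, and its cells are joined at intercalated discs. Skeletal fibres are switched on by nerves at neuromuscular junctions, and fast fibres draw much of their energy in bursts from glycogen and creatine phosphate.

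Differences are given as log2 of SkM over LV, from an edgeR quasi-likelihood fit with the mouse as a block, so a positive value is a higher level in SkM. Counts were scaled by TMM, which sets the trimmed mean of gene ratios between libraries near 1. Levels are scaled RPKM, the deposited RPKM, counts relative to gene length and library total, divided by the TMM factor of the library, so that levels of different genes can be set side by side per length. Genes with an adjusted p under 0.05 were called. Called genes were named restricted to a tissue if at least 8-fold higher there, and graded if 2-fold to 8-fold higher. Genes whose 95% interval lay wholly within 2-fold in either direction were named shared, and the rest unresolved.

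In that fit, 3986 genes (30.0%) were higher in SkM and 4269 (32.1%) higher in LV, and the median over all genes tested was -0.02. With 4 pairs the counts were 3991 (29.8%) and 4211 (31.5%), with a median of -0.02. SkM-restricted genes numbered 357 (2.69%), graded SkM genes 1378 (10.4%), shared genes 5744 (43.2%), graded LV genes 2364 (17.8%) and LV-restricted genes 491 (3.70%), which left 2949 unresolved, of which 1544 had an adjusted p under 0.05. With 4 pairs there were 433 SkM-restricted (3.24%), 470 LV-restricted (3.51%) and 5630 shared genes (42.1%). The 352 genes SkM-restricted in both fits were 98.6% of the list from 5 pairs and 81.3% of that from 4, and the 438 LV-restricted in both were 89.2% and 93.2%. Of the shared genes, 2121 also had an adjusted p under 0.05, so shared here means a bounded difference, not an equal level. The split depended on the scale. With total counts in place of TMM the median of all genes moved by -0.66, and 1590 genes were higher in SkM and 7881 in LV, with 233 called genes reversed. Directions below are relative to the TMM scale, except for summed CPM of marker lists, which rest on total counts. Where a gene or a list median turned from positive to negative with total counts, that value is given. The shares of all genes given above are the background for the counts of list members below.

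Myh6, the alpha myosin heavy chain of the heart, marked LV. Its level in the LV libraries was 6434, 5251, 7201, 5001 and 7249 scaled RPKM, in the order WT replicates 1 and 2 and E0del/+ replicates 1 to 3. In SkM, in the same order, it was 12.9, 8.77, 41.3, 28.2 and 8.34. The tissues did not overlap, and SkM was highest in E0del/+ replicates 1 and 2. Tnni3, the inhibitory subunit of cardiac troponin, stood at 2006, 1518, 2143, 2591 and 2141 scaled RPKM in LV, in that order. The SkM libraries held 4.07, 5.10, 13.2, 7.93 and 5.34. Mybpc3, the cardiac myosin-binding protein C, was at 1537, 1358, 1584, 1306 and 1969.8 in LV, highest in E0del/+ replicate 3. SkM values of Mybpc3 were 1.91, 1.73, 8.83, 2.52 and 1.75, with E0del/+ replicate 1 apart from the other 4. The log2 difference of Myh6 was -8.58 ± 0.63 (SE, adjusted p = 2.43e-05, edgeR quasi-likelihood test, higher in LV in 5 of 5 mice) and -8.39 ± 0.58 with 4 pairs (adjusted p = 1.84e-05, edgeR, 4 of 4 mice). For Tnni3 it was -8.29 ± 0.33 (adjusted p = 3.23e-06, edgeR, 5 of 5 mice) and -8.28 ± 0.35 with 4 pairs. Mybpc3 had the largest difference towards LV of the genes of at least 50 CPM, -9.19 ± 0.55 (adjusted p = 1.09e-05, edgeR, 5 of 5 mice) and -9.05 ± 0.56 with 4 pairs.

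Myh4, the heavy chain of type IIB fast fibres, Actn3, the alpha-actinin of fast-fibre Z discs, and Pvalb, the calcium buffer parvalbumin, marked SkM. Myh4 was at 9.39, 2624, 10.8, 8.36 and 9.81 scaled RPKM in the LV libraries and at 14043, 17968, 13859.6, 16941 and 16980.2 in the SkM libraries, again in the order WT 1 and 2 and E0del/+ 1 to 3. The LV library of WT replicate 2 was far above the other 4, and still below every SkM library. Actn3 had levels of 3.05, 834, 3.33, 2.79 and 3.64 in LV and 4572, 6537, 5013, 6111 and 5400.5 in SkM. Pvalb had levels of 3.45, 692, 3.17, 2.56 and 3.32 in LV and 3524, 6840.3, 3397, 3605 and 4751 in SkM, where WT replicate 2 was the highest. With this library in the fit, the errors were wider with 5 pairs than with 4. The log2 difference of Myh4 was 9.92 ± 1.66 (adjusted p = 0.00125, edgeR quasi-likelihood test, higher in SkM in 5 of 5 mice) and 10.65 ± 0.38 with 4 pairs (adjusted p = 9.45e-07, edgeR, 4 of 4 mice). Actn3 differed by 9.93 ± 1.56 (adjusted p = 0.000908, edgeR, 5 of 5 mice) and by 10.68 ± 0.31 with 4 pairs. For Pvalb the values were 9.45 ± 1.38 (adjusted p = 0.000629, edgeR, 5 of 5 mice) and 10.24 ± 0.26 with 4 pairs.

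**Figure D1:**
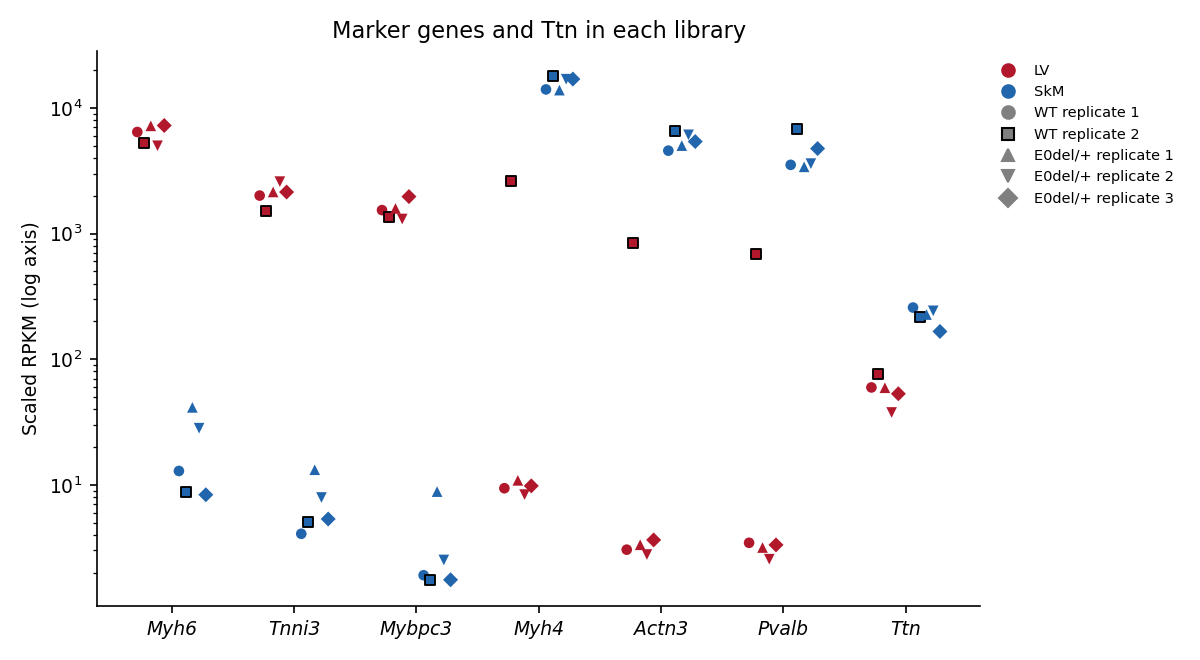
Scaled RPKM (log axis) of 6 marker genes and Ttn in each of the 10 libraries, with colour for tissue and shape for mouse. Myh4 lies between 8.36 and 10.8 in 4 LV libraries, at 2624 in WT replicate 2 (black outline) and between 13859.6 and 17968 in SkM.

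Ttn itself was read in both tissues. LV held 59.6, 76.5, 59.2, 37.7 and 53.1 scaled RPKM and SkM 258, 215, 227, 243 and 166, with no overlap and with the lowest LV value in E0del/+ replicate 2. Its log2 difference was 1.97 ± 0.33 (adjusted p = 0.00131, edgeR, higher in SkM in 5 of 5 mice), 2.10 ± 0.26 with 4 pairs (adjusted p = 0.000311, edgeR, 4 of 4 mice) and 1.31 with total counts. Ttn was thus graded towards SkM, not restricted.

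The 250 bases before the start of 5 markers are shown, since promoters of muscle genes are a known place of tissue control. They come from RefSeq on build GRCm38.p6, where windows were matched for 5 of the 6 markers, all but Actn3. Capitals mark matches, on either strand, to the E-box CAGCTG of myogenic factors, the letters CATTCC that TEAD factors bind, the letters GATAAG that GATA factors bind, the MEF2 site and the CArG box of serum response factor. Of all 32851 promoter windows, 16.3% held that E-box, 14.7% the TEAD letters, 7.44% the GATA letters, 3.19% a MEF2 site and 1.63% a CArG box. Those shares were counted over longer windows than shown, which also took in up to 50 bases after the start. Myh6 is at chr14:54966608-54966857 on the minus strand, Tnni3 at chr7:4522529-4522778 on the minus strand, Mybpc3 at chr2:91117894-91118143 on the plus strand, Myh4 at chr11:67237562-67237811 on the plus strand and Pvalb at chr15:78206401-78206650 on the minus strand, each written 5′ to 3′ along its gene.
Myh6: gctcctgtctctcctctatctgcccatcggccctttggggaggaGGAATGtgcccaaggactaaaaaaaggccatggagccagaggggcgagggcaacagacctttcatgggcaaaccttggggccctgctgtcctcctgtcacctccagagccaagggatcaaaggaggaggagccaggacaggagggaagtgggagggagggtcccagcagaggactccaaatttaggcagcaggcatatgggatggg
Tnni3: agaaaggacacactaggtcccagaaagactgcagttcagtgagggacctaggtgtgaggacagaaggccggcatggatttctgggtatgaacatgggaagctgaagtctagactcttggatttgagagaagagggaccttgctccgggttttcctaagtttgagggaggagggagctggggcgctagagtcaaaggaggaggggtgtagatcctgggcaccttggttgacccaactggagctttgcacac
Mybpc3: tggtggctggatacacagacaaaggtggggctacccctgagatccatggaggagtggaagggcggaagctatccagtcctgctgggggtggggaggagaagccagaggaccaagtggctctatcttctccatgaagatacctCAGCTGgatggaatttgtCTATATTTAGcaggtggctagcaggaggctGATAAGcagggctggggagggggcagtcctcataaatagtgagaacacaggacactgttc
Myh4: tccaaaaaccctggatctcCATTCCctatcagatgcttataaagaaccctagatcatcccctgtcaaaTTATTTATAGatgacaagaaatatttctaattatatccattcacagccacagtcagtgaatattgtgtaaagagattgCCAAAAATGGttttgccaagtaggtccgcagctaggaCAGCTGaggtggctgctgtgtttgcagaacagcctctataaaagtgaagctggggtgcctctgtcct
Pvalb: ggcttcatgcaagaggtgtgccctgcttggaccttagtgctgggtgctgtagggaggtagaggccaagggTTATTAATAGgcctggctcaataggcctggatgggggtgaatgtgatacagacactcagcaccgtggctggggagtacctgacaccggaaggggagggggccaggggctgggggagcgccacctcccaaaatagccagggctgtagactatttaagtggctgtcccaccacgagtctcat

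The Myh6 window held the TEAD letters on the other strand, 206 bases before the start. The Mybpc3 window held the E-box at 108, a MEF2 site at 90 and the GATA letters at 60 bases. The Myh4 window held the TEAD letters at 231, a MEF2 site at 182, a CArG box at 104 and the E-box at 67 bases, and the Pvalb window, a MEF2 site at 180 bases. The Tnni3 window held none of these matches, and neither did a second window on record for Pvalb, which is not shown. A match describes letters and is not a bound site. Over the restricted classes the shares of promoters with each motif are not given, since 260 of 357 SkM-restricted genes (72.8%) and 356 of 491 LV-restricted genes (72.5%) had a window, too few for that check.

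The restricted genes took unlike parts of the 2 transcriptomes. Their classes were set from these same libraries, so the direction of the differences in share follows from that choice. Between 34.5% and 38.4% of each SkM library came from SkM-restricted genes, which gave 1.20% to 1.35% of 4 LV libraries and 9.55% of the LV of WT replicate 2. The LV-restricted genes made up 15.4% to 17.6% of 4 LV libraries, 12.2% of the LV of WT replicate 2 and 0.131% to 0.488% of SkM libraries. Shared genes held 35.6% to 39.0% in LV and 24.1% to 25.5% in SkM. Across the tested genes 2.67% were long noncoding RNAs, against 6.16% of the SkM-restricted, 4.28% of the LV-restricted and 1.34% of the shared genes. The median level was 8.41 scaled RPKM over SkM-restricted genes, 2.61 over LV-restricted genes and 6.29 over all genes tested.

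Of the genes above 50 CPM, those with the largest differences towards SkM in the fit of 5 pairs were sarcomere, calcium and energy genes of fast fibres. After Actn3 and Myh4 came Ryr1, the calcium release channel, at 9.90 (4 pairs 10.66), and Atp2a1, the fast calcium pump SERCA1, at 9.87 (4 pairs 10.60). Atp2a1 stood at 15771 to 21793 scaled RPKM in SkM and at 10.6 to 13.1 in 4 LV libraries, with 3216 in the LV of WT replicate 2. Mylpf, the fast regulatory light chain, differed by 9.65 (4 pairs 10.46), Myoz1, a fast Z-disc protein, by 9.63 (4 pairs 10.49), Tnni2 of fast troponin by 9.63 (4 pairs 10.41), Tnnt3 by 9.57 (4 pairs 10.32), Tnnc2 by 9.53 (4 pairs 10.35) and Ampd1, the AMP deaminase of muscle, by 9.50 (4 pairs 10.47). With 4 pairs, 3 further genes joined the 10 largest. Myoz3 was at 0.0431 to 0.106 scaled RPKM in the 4 LV libraries and at 107 to 166 in their SkM partners, and Tmem233 at 0 to 0.209 and 154 to 197. Hoxc10, a position gene of the hind body, was at 0 to 0.0383 and 35.6 to 50.7, a handful of counts in LV, so that its ratio is not given.

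Towards LV, the genes after Mybpc3 were Ryr2, the cardiac calcium release channel, at -9.06 (4 pairs -8.93), Tnni3k, a kinase that binds cardiac troponin I, at -8.92 (4 pairs -8.61), and Mov10l1, the gene of an RNA helicase, at -8.87 (4 pairs -8.61). Tnnt2 of cardiac troponin differed by -8.66 (4 pairs -8.70), Mylk3, the cardiac light chain kinase, by -8.65 (4 pairs -8.51), Dsp, the desmosome protein desmoplakin, by -8.58 (4 pairs -8.34), and Gata4, a cardiac transcription factor, by -8.32 (4 pairs -8.33). These same 10 genes, with Myh6 and Tnni3, led towards LV with 5 and with 4 pairs. Levels differed widely, with Gata4 at 37.8 scaled RPKM in LV and 0.116 in SkM, Tnnt2 at 5265 and 14.5, and Myh6 at 6227 and 19.9. Chrm2, the muscarinic receptor through which the vagus nerve slows the heart, was chosen after its values were seen. It was at 9.93 to 26.3 scaled RPKM in LV and at 0 in 4 of 5 SkM libraries.

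**Figure D2:**
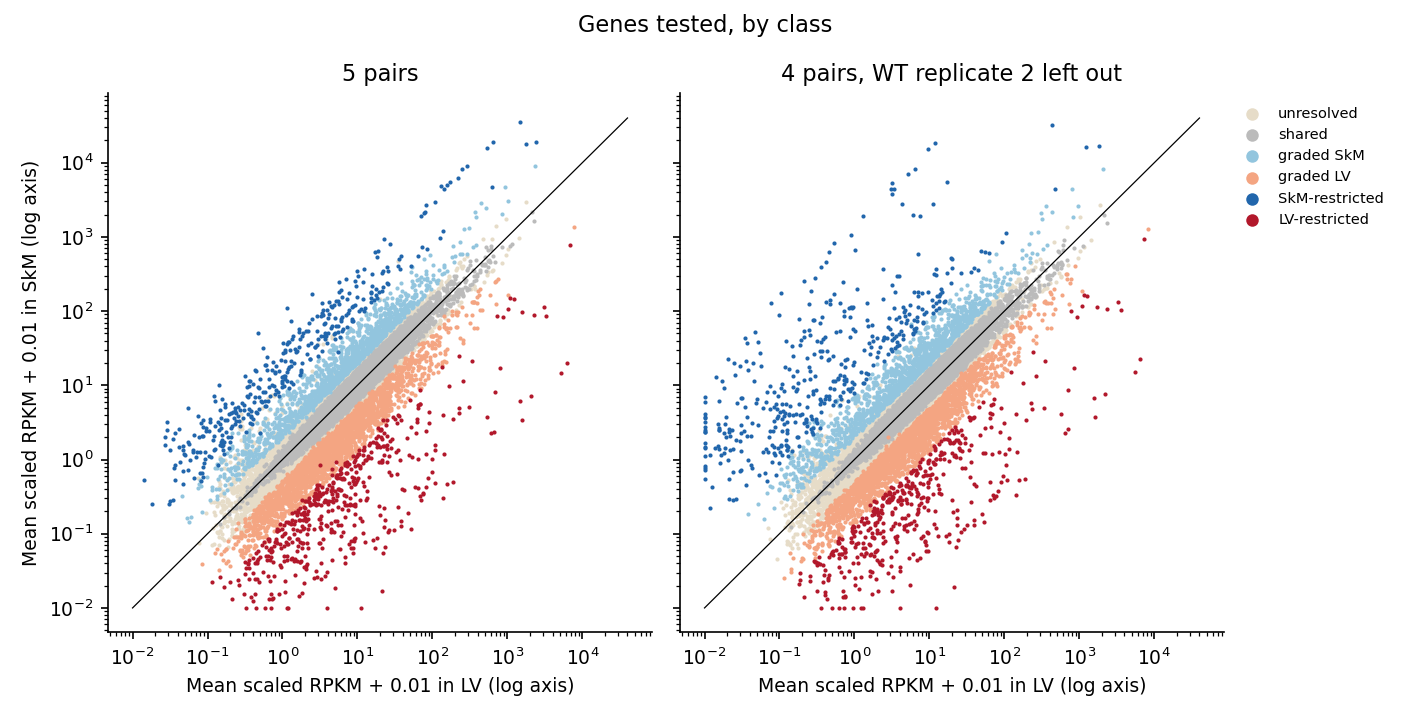
Mean scaled RPKM in SkM against that in LV, each plus 0.01 and on log axes, for every gene tested, with 5 pairs (left) and 4 pairs (right), coloured by class. The 357 SkM-restricted genes of the left panel and the 433 of the right panel, where the LV of WT replicate 2 is left out, lie above the line of equal levels.

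The most abundant genes differed in kind. By RPKM, LV was led by Mb, the oxygen store myoglobin, at 7774 scaled RPKM, Actc1, cardiac actin, at 6930.3, Myh6 at 6227 and Tnnt2. SkM was led by Acta1, skeletal actin, at 34895, then Atp2a1 at 19243, Aldoa, the aldolase of glycolysis, at 18861, Ckm, the muscle creatine kinase, at 17988, and Myh4 at 15958. Aldoa and Gapdh were among the 10 highest in both tissues, and both were higher in SkM, by 3.07 (4 pairs 3.20) and 1.93 (4 pairs 1.96). Mb was graded towards LV at -2.54 (4 pairs -2.66), with 1344 scaled RPKM in SkM. Actc1 was LV-restricted at -3.75 (4 pairs -3.28), yet its SkM levels of 1646, 150.4, 857, 1191 and 87.3 varied widely, low in WT replicate 2 and E0del/+ replicate 3. The light chains Myl2 and Myl3 and the calcium pump Atp2a2 (SERCA2), also in the top 10 of LV, were LV-restricted at -5.53 (4 pairs -5.26), -4.995 (4 pairs -4.74) and -5.10 (4 pairs -4.68). Acta1 was SkM-restricted at 5.86 (4 pairs 6.46) but not absent from LV, where it was at 236 to 868 in 4 libraries and 5653 in WT replicate 2. Atp5b, the beta subunit of ATP synthase, was shared, at 2259 in LV and 1631 in SkM, with a difference of -0.48 (4 pairs -0.57) that was called with 4 pairs alone.

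Of the 15 cardiac sarcomere isoforms tested, 12 were higher in LV, 11 of them LV-restricted, and 1 was higher in SkM, with a median of -4.995 (4 pairs -4.74) against -0.02 over all genes. The gene called against the rest was Tmod1, which caps actin filaments, at 0.61 (4 pairs 0.62) with TMM but -0.05 with total counts. Myh7, the slow or beta heavy chain, was named after its values were seen and was unresolved, at -1.18 ± 0.65 (adjusted p = 0.15, edgeR, higher in LV in 3 of 5 mice) and -0.62 ± 0.52 with 4 pairs. Its levels were 217, 177, 218, 244 and 241 in LV and 151, 17.2, 232, 343 and 33.7 in SkM, which overlapped. Of the summed per-length level of myosin heavy chains, Myh4 made up 87.8% to 97.0% in SkM, and Myh6 93.7% to 96.1% in 4 LV libraries. In the LV of WT replicate 2, Myh6 made up 63.8% and Myh4 31.9%. Myh7 made up 2.91% to 4.57% in those 4 LV libraries and 0.0930% to 1.78% in SkM.

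All 18 fast-fibre sarcomere isoforms were higher in SkM, 17 of them SkM-restricted, with a median of 9.09 with 5 pairs, 10.18 with 4 pairs and 4.94 when the libraries were not paired by mouse. Acta1 and Neb, the nebulin that spans the thin filament (8.65, 4 pairs 9.38), were among the most abundant. Lmod3, which nucleates actin filaments, was the 1 shared member, at 0.62 (4 pairs 0.65) and, with total counts, -0.04. The list of slow-fibre isoforms was split. Of 8 tested, 6 were higher in SkM and 1 in LV, and 7 and 1 with 4 pairs, with a median of 4.04 (4 pairs 4.52). The 6 include Myh3 and Myh8, the embryonic and perinatal heavy chains, named after their values were seen, so that the count and the median are not of slow fibres alone. Mybpc1, the slow myosin-binding protein C, was the most abundant, at 149 to 495 scaled RPKM in SkM and 0.294 to 0.457 in 4 LV libraries, with 47.4 in WT replicate 2. Myh7b, a myosin of heart and slow fibres, was LV-restricted at -5.06 (4 pairs -4.74). The SkM libraries differed between mice. Tnni1, the slow troponin I, was at 118, 15.3, 139.6, 248 and 26.3, in the order WT 1 and 2 and E0del/+ 1 to 3, and Tpm3, the slow tropomyosin called higher in SkM with 4 pairs alone, at 50.9, 10.5, 70.7, 109 and 17.9. Both were lowest in WT replicate 2 and E0del/+ replicate 3, the mice with the most Y-linked counts, while Myh3 and Myh8 were highest in WT replicate 2. Csrp3, a Z-disc sensor called muscle LIM protein, was higher in LV at -4.02 (4 pairs -3.76), and its SkM levels of 48.0, 17.1, 47.1, 295 and 16.3 were highest in E0del/+ replicate 2. Whether sex or fibre content set these levels was not tested.

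Sarcomere and related genes that both muscles use leaned to SkM on the TMM scale. Of 29 tested, 21 were higher in SkM and 4 in LV, with a median of 0.99 (4 pairs 1.05), which shrank to 0.33 with 11 and 7 called when total counts were used. Beside Ttn, Tpm1, the fast and cardiac tropomyosin, differed by 1.53 (4 pairs 1.41). The 4 higher in LV were 2 listed genes outside the sarcomere proper, Mb and Cryab, a small heat shock protein, at -1.15 (4 pairs -1.28), and Csrp3 and Actn2, the alpha-actinin of heart and slow fibres. Actn2 was at 676 scaled RPKM in LV and 249 in SkM (-1.52, 4 pairs -1.43), a graded gene beside the restricted Actn3. Pairs of related genes of this kind were set out by tissue, 33 in all.

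In 26 of the 33 pairs, the partner listed for heart was higher in LV and the partner listed for skeletal muscle higher in SkM. Some listed heart partners are general or brain forms, such as Rpl3, Pgam1 and Ckb. These made up 14.99%, 3.67% and 1.81% of their pairs in 4 LV libraries. In 22 of these 26 each partner was the larger of the 2, per length, in its own tissue, as it was for Tmod1 and Tmod4, 23 pairs in all. Troponin genes were among those that switched. Tnni3 made up 99.8% of the Tnni3 and Tnni2 sum in 4 LV libraries, and Tnni2 99.9% in SkM. Tnnc1 (-4.46, 4 pairs -4.11) made up 99.8% of its pair in those LV libraries and Tnnc2 98.1% in SkM. The heart partners Nebl, Myoz2, Ankrd1 and Casq2 differed by -8.21 (4 pairs -7.96), -3.32 (4 pairs -3.19), -6.93 (4 pairs -6.86) and -4.74 (4 pairs -4.46), and the skeletal partners Mylk2, Mybpc2, Ankrd2 and Casq1 by 9.22 (4 pairs 10.15), 7.28 (4 pairs 7.97), 6.12 (4 pairs 7.65) and 7.36 (4 pairs 8.05). Softer switches were those of Lmod2, which made up 88.6% of its pair in 4 LV libraries, while Lmod3 made up 56.4% in SkM, and of the lactate dehydrogenases. Ldhb (-3.32, 4 pairs -3.22) made up 74.8% of that pair in 4 LV libraries and Ldha (2.74, 4 pairs 2.85) 96.4% in SkM.

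In other pairs the partners did not differ in opposite directions, or the larger partner was the same in both tissues. Jph2 and Jph1, which hold the reticulum to the cell membrane, were both higher in SkM, at 1.48 (4 pairs 1.47) and 4.27 (4 pairs 4.71). So were Tmod1, which turned with total counts, and Tmod4 (4.31, 4 pairs 4.66), though Tmod1 was the larger in LV and Tmod4 in SkM. Both members were higher in LV for the cytochrome oxidase subunits Cox6a1 and Cox6a2 (-1.47 and -0.83) and Cox7a2 and Cox7a1 (-0.70 and -1.38), whose muscle form was the larger in both tissues. Of Cox8a and Cox8b, only Cox8a was called (-1.36), and Cox8b differed by -0.41 (4 pairs -0.59), called with 4 pairs alone. Rpl3, a ribosomal protein, and its muscle form Rpl3l parted at -0.70 (4 pairs -0.55) and 1.13 (4 pairs 1.09), but Rpl3 was not called with 4 pairs and made up 14.99% of the pair even in 4 LV libraries. Ckb, the brain creatine kinase, was LV-restricted at -3.17 (4 pairs -2.87), graded with 4 pairs, and made up 1.81% of its pair there beside Ckm. Popdc2 and Popdc3, membrane proteins of muscle, went to LV and SkM at -2.43 (4 pairs -2.56) and 1.45 (4 pairs 1.42), though Popdc2 was the larger in both. Eno1 had 0 counts in all 10 libraries, and its pair with Eno3 was not tested. How reads with several places were counted is not given, so this 0 is not read as absence. For the same reason, the level of any partner with near-identical copies, and its share of a pair, may be too low.

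**Figure D3:**
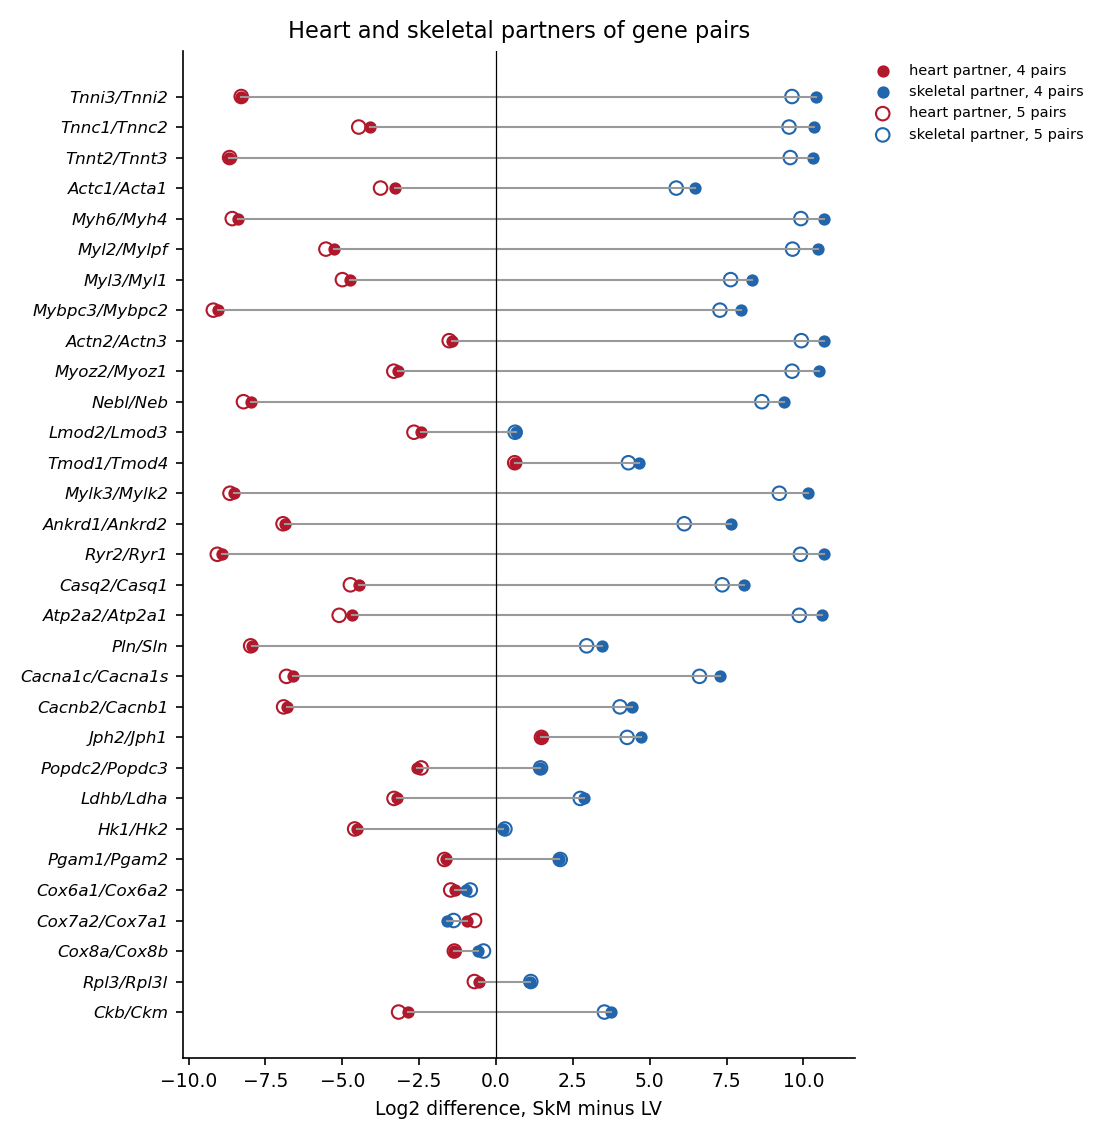
Log2 difference, SkM minus LV, of the heart partner (red) and the skeletal partner (blue) of 31 of the 32 pairs tested, from 4 pairs of libraries (filled) and 5 (open). Ryr2 and Ryr1 lie at -8.93 and 10.66 with 4 pairs, while Cox7a2 and Cox7a1 both lie below 0, and Tmod1 and Lmod3, just above 0, fall to -0.05 and -0.04 with total counts.

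Calcium handling and excitation followed the same division. Of 23 heart genes tested, 16 were higher in LV, 15 of them LV-restricted, and 4 in SkM, with a median of -4.74 (4 pairs -4.46). Pln, phospholamban, the brake on SERCA2, was at 1487 scaled RPKM in LV and 6.21 in SkM (-7.98, 4 pairs -7.94). Its counterpart Sln, sarcolipin, was at 1.12 and 7.73 (2.95, 4 pairs 3.44), so that SkM held little of either. Cacna1c and Cacnb2, subunits of the cardiac calcium channel, were LV-restricted at -6.81 (4 pairs -6.61) and -6.91 (4 pairs -6.79). The 4 heart genes higher in SkM were Scn4b, a sodium channel subunit, at 4.07 (4 pairs 4.52), Jph2, Kcnj11, the pore of the ATP-sensitive potassium channel, at 0.92 (4 pairs 0.89), and Trpm4, a cation channel, at 0.49 (4 pairs 0.43) but -0.18 with total counts.

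Of 22 skeletal genes of this kind tested, 21 were higher in SkM, 17 of them SkM-restricted, and 0 in LV, with a median of 4.30, and 22 with a median of 4.70 with 4 pairs. Cacna1s, the voltage sensor that opens Ryr1, was at 317 to 459 scaled RPKM in SkM and 2.01 to 2.80 in 4 LV libraries (6.62, 4 pairs 7.29). Its subunit Cacnb1 and the sodium channel Scn4a differed by 4.03 (4 pairs 4.41) and 3.89 (4 pairs 4.31). LV held 9.47 scaled RPKM of Scn4a in those 4 libraries, so that this channel was not confined to SkM. Casq1, which stores calcium in the reticulum, was at 2078 in SkM, and Casq2 at 255 in LV and 11.4 in SkM. Hrc, which binds calcium beside calsequestrin, was shared at 0.21 (4 pairs 0.20), or -0.46 with total counts.

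Genes of the intercalated disc leaned to LV. Of 18 tested, 13 were higher in LV, 7 of them LV-restricted, and 1 in SkM, with a median of -2.10 (4 pairs -2.02). Dsp was at 83.3 to 216 scaled RPKM in LV and 0.187 to 1.14 in SkM. Ctnnb1, beta-catenin, which both muscles use for other junctions, was shared at -0.47 (4 pairs -0.44), and Xirp1, an actin-binding repeat protein, was at -0.55 (4 pairs -0.45). Nrap, which anchors thin filaments at the disc and at the tendon ends of skeletal fibres, was the gene higher in SkM, at 1.23 (4 pairs 1.37). Gja1, the gap junction protein connexin 43, and Cdh2, N-cadherin, were named after their values were seen. Gja1 was at 137 in LV and 3.97 in SkM (-5.09, 4 pairs -5.11), and Cdh2 differed by -7.38 (4 pairs -7.10).

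Of 14 neuromuscular junction genes tested, 9 were higher in SkM, 5 of them SkM-restricted, and 2 in LV, with a median of 1.25 (4 pairs 1.20), which was -0.04 over the 10 genes with at least 10 counts in every library. With total counts 8 were higher in SkM and 5 in LV, with a median of 0.59. The acetylcholine receptor subunit Chrna1, named after its values were seen, was at 2.26 to 3.69 scaled RPKM in SkM and 0.0150 to 0.102 in 4 LV libraries (5.07, 4 pairs 6.15). Ache, the esterase that ends the signal, differed by 3.23 (4 pairs 3.54), and Rapsn, which clusters the receptor, by 1.17 (4 pairs 1.07). Dok7, an adaptor of the receptor kinase, was shared at -0.34 (4 pairs -0.45) and called with 4 pairs alone, higher in LV. The 2 higher in LV were broad signalling genes, Prkar1a, a regulatory subunit of protein kinase A, at -1.46 (4 pairs -1.38), and Etv5, a transcription factor, at -0.53 (4 pairs -0.37).

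The complexes that fix the sarcomere to the cell membrane held genes of both tissues. Of 31 genes of the glycoprotein complex and costamere, 13 were higher in SkM and 14 in LV, against 30.0% and 32.1% of all genes. Their median was -0.06 (4 pairs -0.01), near that of all genes, and 0.14 without the pairing by mouse. With total counts 5 were higher in SkM and 17 in LV, with a median of -0.71. LIM proteins differed in opposite directions. Fhl2 was at 612 scaled RPKM in LV and 2.24 in SkM (-8.15, 4 pairs -8.24), and Fhl1 at 65.1 and 558 (3.03, 4 pairs 3.39). Nos1, the nitric oxide synthase tied to the complex in fibres, was SkM-restricted at 6.82 (4 pairs 9.20). Dmd, dystrophin, differed by 0.80 (4 pairs 0.85), Sgca and Sgcd of the sarcoglycans by 0.83 (4 pairs 0.77) and 0.88 (4 pairs 1.13), and Sntb1, a syntrophin, by 1.89 (4 pairs 2.37). Dag1, dystroglycan, was shared at 0.16 (4 pairs 0.34), or -0.49 with total counts. The talins, which link integrins to actin, took opposite sides, Tln1 at -0.54 (4 pairs -0.49) and Tln2 at 1.05 (4 pairs 1.21). Further genes higher in SkM were Dtna (1.54, 4 pairs 1.63) and Ank3 (1.05, 4 pairs 1.17), while Sgcb, Cav3 and Dysf, at 0.51, 0.48 and 0.38, fell to -0.15, -0.18 and -0.29 with total counts, and Dysf was not called with 4 pairs.

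Fuel use divided the tissues by pathway. Of 30 genes of fatty acid uptake and oxidation, 27 were higher in LV and 1 in SkM, with a median of -1.36 (4 pairs -1.40). Most were graded, 22 of the 30, and 1 was LV-restricted, Fabp3, the fatty acid carrier of heart, named after its values were seen (-3.42, 4 pairs -3.48). Lpl, the lipase that frees fatty acids from blood lipids, was at 819.8 to 1210.1 scaled RPKM in LV and 77.2 to 219 in SkM (-2.72, 4 pairs -2.55). Cd36, a fatty acid transporter, differed by -2.27 (4 pairs -2.08), and Hadhb and Hadha of mitochondrial beta-oxidation by -1.81 (4 pairs -1.81) and -1.64 (4 pairs -1.60). Ucp3, a mitochondrial carrier of fibres, was the gene higher in SkM, at 1.63 (4 pairs 1.60). Lpl and Cd36 are also made by endothelial cells and adipocytes, whose markers are given further on.

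Genes of ketone body and branched-chain amino acid use were mostly shared, 13 of 21, against 43.2% of all genes. Of the 21, 12 were higher in LV and 2 in SkM, against 32.1% and 30.0% of all genes. Their median was -0.52 (4 pairs -0.49). With total counts 19 were higher in LV and 1 in SkM, with a median of -1.18. Bdh1, the first enzyme of ketone use, was named after its values were seen and was LV-restricted at -3.66 (4 pairs -3.78). Oxct1 and Acat1, the next enzymes of the same route, were at -1.38 (4 pairs -1.36) and -0.84 (4 pairs -0.84). Ivd of leucine breakdown was at -0.83 (4 pairs -0.71). Those higher in SkM were Bckdk, the kinase that holds branched-chain breakdown in check, at 1.23 (4 pairs 1.26), and Acadsb, at 0.53 but -0.13 with total counts. Aldh6a1 of valine breakdown was at 0.21 (4 pairs 0.33), or -0.45 with total counts.

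Glycolysis and glycogen genes leaned the other way. Of 38 tested, 28 were higher in SkM, 10 of them SkM-restricted, and 9 in LV, with a median of 2.07 (4 pairs 2.10). Pygm, the glycogen phosphorylase of muscle, was at 373 to 1272 scaled RPKM in LV and 3678 to 5776 in SkM (3.01, 4 pairs 3.21). Eno3, the muscle enolase, differed by 2.34 (4 pairs 2.43), and Pgam2, the muscle phosphoglycerate mutase, by 2.09 (4 pairs 2.05). Those higher in LV were mostly the general or embryonic forms of the same enzymes. Hk1, a hexokinase, was at 45.9 in LV and 1.96 in SkM (-4.60, 4 pairs -4.51), while Hk2, the muscle form, was shared at 90.6 and 111 (0.29, or -0.37 with total counts). Pygb of glycogen, Pfkl and Pfkp of phosphofructokinase and Pgam1 differed by -5.76 (4 pairs -5.45), -2.82 (4 pairs -2.71), -3.14 (4 pairs -2.94) and -1.68 (4 pairs -1.64). Pfkfb2, the cardiac enzyme that makes the activator of phosphofructokinase, differed by -2.52 (4 pairs -2.47), Pgm1, as the files name a phosphoglucomutase, by -1.29 (4 pairs -1.15) and Slc2a1, the basal glucose transporter, by -0.91 (4 pairs -0.57).

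Most genes of the citric acid cycle and the respiratory chain were shared on the TMM scale. Of 28 citric acid cycle genes, 20 were shared, against 43.2% of all genes. Of the 28, 10 were higher in LV, near the 32.1% of all genes, and 2 in SkM. Their median was -0.29 (4 pairs -0.37). With total counts 26 were higher in LV and 1 in SkM, with a median of -0.95. Cs, citrate synthase, was at 317 to 536 scaled RPKM in LV and 368 to 483 in SkM, with a difference of -0.08 and a 95% interval of -0.53 to 0.37. Ogdh was higher in LV at -0.96 (4 pairs -0.95), and Sdha was at -0.27 (4 pairs -0.28). The widest gap was between carriers of aspartate and glutamate. Slc25a13, named after its values were seen, was LV-restricted at -6.71 (4 pairs -6.39), and Slc25a12 was graded towards SkM at 1.46 (4 pairs 1.53). Idh3a, the other gene higher in SkM, was at 0.63 but -0.04 with total counts.

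Of 76 genes of the respiratory chain and ATP synthase tested, 56 were shared, against 43.2% of all genes. Of the 76, 36 were higher in LV and 0 in SkM, against 32.1% and 30.0% of all genes, and 57 were higher in LV with 4 pairs. The median was -0.44 (4 pairs -0.59) and the values ran from -2.67 to 0.37, while with total counts 74 were higher in LV and 0 in SkM, with a median of -1.11. Atp5a1, the alpha subunit of ATP synthase, was at -0.56 (4 pairs -0.65), called with 4 pairs alone, and Uqcrc1, a core subunit of complex III, at -0.55 (4 pairs -0.65). Slc25a4, the muscle carrier that swaps ADP for ATP, was shared at 2106 and 2198 (0.04, 95% interval -0.47 to 0.55, or -0.63 with total counts). Of 15 creatine and adenylate genes of energy buffering tested, 6 were higher in SkM and 4 in LV, near the 30.0% and 32.1% of all genes. Their median was -0.02 (4 pairs -0.00), equal to that of all genes, and -0.68 with 6 and 8 called with total counts. Ckm and Ampd1 were SkM-restricted, and Ak1, an adenylate kinase, was graded at 1.97 (4 pairs 1.97). Towards LV went Ckb, Ckmt2, the mitochondrial creatine kinase (-0.76, 4 pairs -0.88), Ak4 (-2.24, 4 pairs -1.82) and Ampd3 (-1.10, 4 pairs -0.95).

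**Figure D4:**
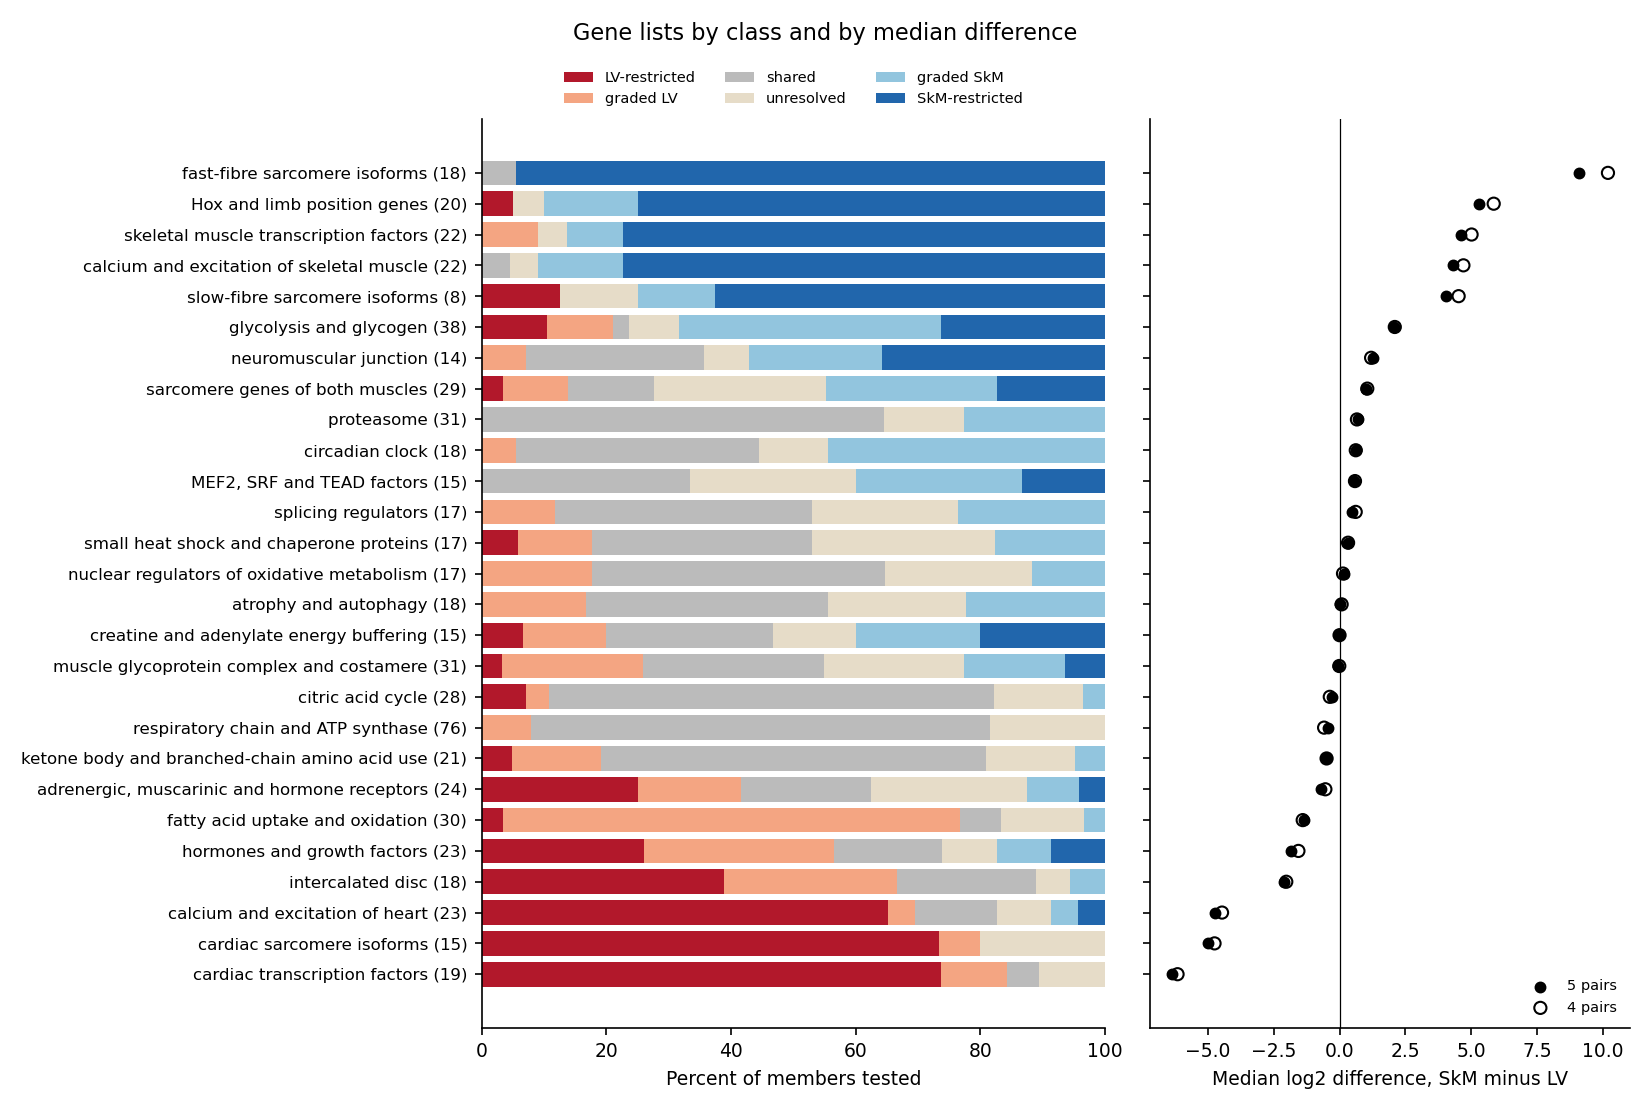
Share of each gene list's tested members in each class with 5 pairs (left, number tested in brackets) and the list's median log2 difference, SkM minus LV, with 5 pairs (filled) and 4 pairs (open, genes with 0 counts in a tissue set at their bound). Medians run from -6.35 in cardiac transcription factors to 9.09 in fast-fibre isoforms, and those of the MEF2, SRF and TEAD factors, splicing regulators, chaperones, circadian clock, nuclear regulators and atrophy genes turn below 0 with total counts.

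Transcription factors were divided between the tissues. Of 19 cardiac factors tested, 17 were higher in LV, 14 of them LV-restricted, and 1 in SkM, with a median of -6.35 (4 pairs -6.15). Ankrd1, a stress-responsive repeat protein, was at 495 to 1106 scaled RPKM in LV and 1.58 to 20.6 in SkM. Hopx, a homeodomain protein without DNA binding of its own, differed by -6.35 (4 pairs -6.37), Tbx20 by -7.62 (4 pairs -7.57) and Tbx5 by -6.88 (4 pairs -6.59). Nkx2-5, an early cardiac factor named after its values were seen, was at 19.8 to 26.7 in LV and at 0 in 4 of 5 SkM libraries. Genes like it passed the count filter through their LV counts, so the list's count and median follow in part from that filter. Smyd1, a methyltransferase of both striated muscles, was the 1 higher in SkM, at 0.85 (4 pairs 0.85).

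Of 22 skeletal muscle factors tested, 19 were higher in SkM, 17 of them SkM-restricted, and 3 in LV, with a median of 4.59. With 4 pairs, 5 of 23 had 0 counts in the 4 LV libraries, and the median was 6.05 as fitted and 5.01 with these at a bound of 3 counts over those libraries. Genes like these 5 passed the count filter through their SkM counts, so the counts and medians follow in part from that filter. Tbx15, a factor of fast fibres, was at 124 to 198 scaled RPKM in SkM and 0.306 to 0.698 in 4 LV libraries (7.42, 4 pairs 8.31). Sox6, which represses slow genes, differed by 3.77 (4 pairs 4.15), Maf by 3.94 (4 pairs 4.25) and Nfatc1, which follows nerve activity, by 1.74 (4 pairs 1.79). Myod1, a myogenic master factor named after its values were seen, was at 16.6, 40.0, 20.1, 18.0 and 24.2 in SkM and 0.0324, 3.03, 0.0280, 0 and 0 in LV. The 3 against the rest were Six5 (-1.78, 4 pairs -1.49), Eya3 (-0.83, 4 pairs -0.86) and Tcf15, which is known from endothelial cells too (-1.40, 4 pairs -1.43).

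Position along the body was also read. Of 40 Hox and limb genes, 20 had enough counts, and 18 were higher in SkM, 15 of them SkM-restricted, and 1 in LV, with a median of 5.29. With 4 pairs, 6 of 21 had 0 counts in the 4 LV libraries, and the median was 7.36 as fitted and 5.85 with these at that bound. Hoxd8 and Hoxd9 were at 22.1 to 46.3 and 4.41 to 12.1 scaled RPKM in SkM and 0.206 to 6.59 and 0 to 1.43 in LV, and Hoxc10 at 35.6 to 75.01 in SkM. The 1 higher in LV was Tbx5, a gene of heart and forelimb, at 7.69 to 10.5 in LV and 0 to 0.160 in SkM. The LV levels of Hox genes rested on few counts, and none of these genes had at least 10 in every library. Most passed the count filter through their SkM counts, so the count and the median follow in part from that filter.

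Factors that both muscles use differed less. Of 15 MEF2, SRF and TEAD factors tested, 9 were higher in SkM and 2 in LV, with a median of 0.56 (4 pairs 0.58) that turned to -0.11 with total counts, with 3 and 5 called. Mef2c differed by 3.32 (4 pairs 3.55), Tead1 by 1.10 (4 pairs 1.21) and Srf by 0.68 (4 pairs 0.66), while Mef2d was at 0.56, or -0.11 with total counts. Tead3 (-0.64, 4 pairs -0.78) and Wwtr1, a TEAD partner (-0.85, 4 pairs -0.88), were higher in LV. Of 17 nuclear regulators of oxidative metabolism, 6 were higher in SkM and 5 in LV, near the 30.0% and 32.1% of all genes, with a median of 0.16 (4 pairs 0.13) that was -0.51 with total counts (2 and 9 called), -0.08 without E0del/+ replicate 2 and -0.01 without WT replicate 1. Rxra and Nr4a1 were higher in SkM, at 1.92 (4 pairs 2.01) and 2.40 (4 pairs 2.55), and Rxrg at 0.62, or -0.04 with total counts. Ppara, Esrrb, Esrrg, Ppargc1a and Ppargc1b, regulators of fat burning and mitochondria, were higher in LV, at -2.05 (4 pairs -1.79), -2.34 (4 pairs -2.15), -1.24 (4 pairs -1.14), -0.79 (4 pairs -0.81) and -0.66 (4 pairs -0.63). Esrra, their relative, was shared at -0.08 (4 pairs -0.23).

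Splicing regulators leaned slightly to SkM on the TMM scale. Of 17 tested, 10 were higher in SkM and 2 in LV, with a median of 0.49 (4 pairs 0.61) that turned to -0.18 with total counts, with 4 and 7 called. Mbnl1 and Mbnl2, which promote adult splice forms, differed by 1.93 (4 pairs 2.09) and 0.97 (4 pairs 1.08), and Rbfox1 by 2.82 (4 pairs 2.97), while Qk was shared at -0.31 (4 pairs -0.21). The 2 higher in LV were Rbm20, which shortens titin by skipping exons, and Ptbp1 (-1.12, 4 pairs -0.95). Rbm20 was at 54.6, 44.0, 51.1, 48.1 and 53.0 scaled RPKM in LV and 13.8, 22.1, 17.3, 19.6 and 17.1 in SkM (-1.49, 4 pairs -1.61). Counts per gene do not show which Ttn exons were used.

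Secreted signals were mostly of LV. Of 23 hormones and growth factors tested, 17 were higher in LV, 6 of them LV-restricted, and 5 in SkM, with a median of -1.83 (4 pairs -1.56). Nppa and Nppb, the natriuretic peptides, were named after their values were seen and differed by -6.09 (4 pairs -6.29) and -7.16 (4 pairs -7.22), with Nppa at 207, 203, 213, 496 and 438 scaled RPKM in LV. The most abundant was Clu, clusterin, at -2.75 (4 pairs -2.81). Fndc5, the precursor of irisin, was at 128 in LV and 27.4 in SkM (-2.21, 4 pairs -2.27). Vegfa and Vegfb, growth factors of vessels, were at -0.57 (4 pairs -0.69) and -0.88 (4 pairs -1.01). Mstn, myostatin, which limits muscle growth, was SkM-restricted at 61.4 to 112 in SkM and 0.0969 to 0.239 in 4 LV libraries (7.42, 4 pairs 8.84). The others higher in SkM were Ostn, osteocrin (6.25, 4 pairs 7.81), Fgf6 (2.99, 4 pairs 3.45), Gdf11 (1.44, 4 pairs 1.61) and Igf1 (0.72, 4 pairs 0.71).

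Receptors leaned to LV. Of 24 receptors tested, 12 were higher in LV and 6 in SkM, against 32.1% and 30.0% of all genes. Their median was -0.70 (4 pairs -0.54), and 7 were higher in SkM with 4 pairs. With total counts 16 were higher in LV and 3 in SkM, with a median of -1.38. Adrb1, the beta-1 receptor, named after its values were seen, was at 8.72 scaled RPKM in LV and 0.235 in SkM (-5.27, 4 pairs -5.003). Esr1, an estrogen receptor, was higher in SkM at 4.98 (4 pairs 5.83), as were Ghr, the growth hormone receptor (0.89, 4 pairs 0.98), and Adora1 (0.77, 4 pairs 0.97). Nr3c1, the glucocorticoid receptor, was at 0.59, or -0.07 with total counts. Insr, the insulin receptor, was higher in LV at -0.60 (4 pairs -0.56), within 2-fold, and Npr2 was shared at 0.02, or -0.64 with total counts.

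Of 17 chaperones, 6 were shared, 5 were higher in SkM and 5 in LV, near the 30.0% and 32.1% of all genes, with a median of 0.31 (4 pairs 0.32) that was -0.35 with total counts, with 3 and 8 called. Hspb7, a small heat shock protein of heart, was LV-restricted at -3.12 (4 pairs -3.09). Bag3, Hsp90aa1 and Dnaja4 were also higher in LV, at -0.88 (4 pairs -0.92), -1.01 (4 pairs -0.92) and -0.56 (4 pairs -0.59), of which Dnaja4 was not called with 4 pairs, while Hspb6, Hspa8 and Hsp90ab1 were shared at 0.31, 0.04 and 0.27, or -0.35, -0.62 and -0.39 with total counts. The proteasome moved as a block on the TMM scale. Of its 31 subunits, 27 were higher in SkM and 0 in LV, against 30.0% and 32.1% of all genes, with a median of 0.69 (4 pairs 0.66). With total counts 10 were higher in SkM and 6 in LV, with a median of 0.03, against -0.68 over all genes on that scale. The change of scale moves all genes about alike, so the gap to the median gene on it is not a second observation. Psmd2 and Psmd1, large subunits of the cap, were at 0.92 (4 pairs 0.95) and 1.04 (4 pairs 1.08), and 20 of 31 subunits were shared, among them Psmc3 and Psmd3 at 0.44 and 0.45, or -0.23 and -0.22 with total counts.

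Of 18 atrophy and autophagy genes, 7 were higher in SkM and 5 in LV, also near the 30.0% and 32.1% of all genes, with a median of 0.02 (4 pairs 0.08) that was -0.64 with total counts, with 4 and 11 called. Fbxo32, the ubiquitin ligase atrogin-1, was higher in SkM at 1.32 (4 pairs 1.31), as were Fbxo31 (1.33, 4 pairs 1.39) and Sqstm1, which carries cargo to autophagy (0.80, 4 pairs 0.74). Trim63, the ligase MuRF1, was shared at 0.57, or -0.10 with total counts. Foxo3, Map1lc3a, Gabarapl1, Fbxo21 and Ddit4 were higher in LV, at -1.27 (4 pairs -0.98), -0.89 (4 pairs -1.06), -1.04 (4 pairs -1.11), -1.02 (4 pairs -0.85) and -0.78 (4 pairs -0.83). Of 18 clock genes, 11 were higher in SkM and 2 in LV, with a median of 0.62 (4 pairs 0.61) that turned to -0.05 with total counts, with 8 and 7 called. Tef, Nr1d1 and Bhlhe40 were at 1.17 (4 pairs 1.16), 0.77 (4 pairs 0.74) and 1.72 (4 pairs 1.70), and Nr1d2 at 0.44, or -0.23 with total counts. Npas2 was graded towards LV at -2.59 (4 pairs -2.58), and Per2 was at -0.83 (4 pairs -0.94). The hour at which tissues were taken is not given in the sources used here.

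The shared genes with the most counts came from mitochondria and general upkeep. Among them were Slc25a4, Atp5b, Sdha, Cs and Uqcrc1 of energy supply, Hrc of the reticulum, Hsp90ab1, the nuclear RNA Neat1 and Psap, a lysosomal protein. Neat1 was at 277 to 456 scaled RPKM in LV and 336 to 673 in SkM (0.36, 4 pairs 0.29, or -0.30 with total counts), and Psap at 337 to 505 and 355 to 508 (-0.16, 4 pairs -0.22). With 4 pairs Uqcrc1 was no longer within 2-fold and was unresolved.

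Tissues also differ in the cells beside muscle, which 15 marker lists followed by their summed CPM. The sums rest on total counts, where the median of all genes was -0.68, so they lean more towards LV than TMM values. Genes of the lists were called with TMM. Genes named from these lists were chosen after their values were seen. In bulk RNA, fewer cells of a type and less RNA per cell cannot be told apart. With 5 mice an exact permutation of signs cannot give a p under 0.05, so no p is given. The 8 ventricle markers summed to between 67299 and 98314 CPM in LV and between 212 and 2293 CPM in SkM, led by Myh6, with 8 of 8 called higher in LV and none at 0. Within SkM that sum was highest in WT replicate 1 (2293 CPM) and lowest in WT replicate 2 and E0del/+ replicate 3 (239.8 and 212). The 8 fast muscle markers summed to 115576 to 124398 CPM in SkM, led by Myh4, with 8 of 8 called higher in SkM. The labels of both tissues thus matched their markers, with the LV of WT replicate 2 holding both. The 5 slow muscle markers summed to between 438 and 742 CPM in LV and between 447 and 1829.7 CPM in SkM, led by Mybpc1, with 4 called higher in SkM and 1 in LV. The atrium list summed to between 253 and 654 CPM in LV and between 55.7 and 76.7 CPM in SkM, led by Nppa, with 2 of 6 tested higher in each tissue and Bmp10 at 0 in SkM.

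Markers of vessels and connective tissue were higher in LV, by most calls with TMM and by sums of total counts. All 12 endothelial markers were called higher in LV, led by Cdh5, and summed to between 1553 and 3095 CPM in LV and between 193 and 386 CPM in SkM. Smooth muscle and pericyte markers summed to between 621 and 1064 CPM in LV and between 91.7 and 279 CPM in SkM, led by Rgs5, with 6 of 8 called higher in LV. All 10 fibroblast markers were called higher in LV, led by Dcn, with Tcf21 at 0 in SkM, and summed to between 966 and 1831 CPM in LV and between 152 and 566 CPM in SkM. Macrophage and leukocyte markers summed to between 171 and 312 CPM in LV and between 24.8 and 149 CPM in SkM, led by Lyz2, with 8 of 10 tested called higher in LV and 1 in SkM. Mesothelium and epicardium markers summed to between 29.6 and 61.7 CPM in LV and between 0.629 and 17.3 CPM in SkM, led by Upk3b, with 4 of 5 tested higher in LV. The erythroid list summed to between 23.2 and 33.1 CPM in LV and between 2.75 and 22.2 CPM in SkM, of which Alas2 made up 93.4%, with 1 of 2 tested higher in LV. Hba-a1 and Hba-a2 had 0 counts in all 10 libraries, which is not read as absence, as for Eno1. Endothelial and other non-muscle markers thus moved in the same direction as the fatty acid genes, most secreted factors and most of the receptors called. The part of non-muscle cells in those results was not tested.

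Adipocyte markers summed to 483 to 737 CPM in 4 LV libraries, 1744 in the LV of WT replicate 2 and 2824 to 6243 in SkM, with 2 of 8 called higher in SkM. Car3, which fast fibres also make, was 65.3% of this sum. It was named after its values were seen, with 3223, 2278, 2081, 3139.6 and 2531 scaled RPKM in SkM. Adipoq, also so named and more particular to fat, was at 60.1, 0.787, 16.6, 16.3 and 119 in SkM and 0.146, 16.5, 1.22, 0.886 and 0 in LV, low in the SkM of WT replicate 2. Satellite cell markers summed to between 9.86 and 31.3 CPM in LV and between 44.4 and 61.4 CPM in SkM, led by Cdh15, with 4 of 5 tested called higher in SkM and 1 in LV. The tendon list summed to between 18.4 and 24.2 CPM in LV and between 12.8 and 49.9 CPM in SkM, led by Thbs4, with 1 of 4 tested higher in each tissue and Kera at 0 in LV. Schwann cell markers summed to between 77.4 and 111 CPM in LV and between 41.1 and 178 CPM in SkM, led by Pmp22, with 3 of 7 tested higher in SkM. The log2 ratio of their sum, SkM over LV, was -0.18 with total counts and 0.49 with TMM. Neuron markers summed to 8.81 to 19.4 CPM in 4 LV libraries, 79.6 in the LV of WT replicate 2 and 0.845 to 2.88 in SkM, with 1 of 1 tested higher in LV. They were led by Tubb3, which was not tested. It was at 31.4 scaled RPKM in the LV of WT replicate 2 and at 0.211 to 0.383 in the other LV libraries, so its lead rested on that library.

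**Figure D5:**
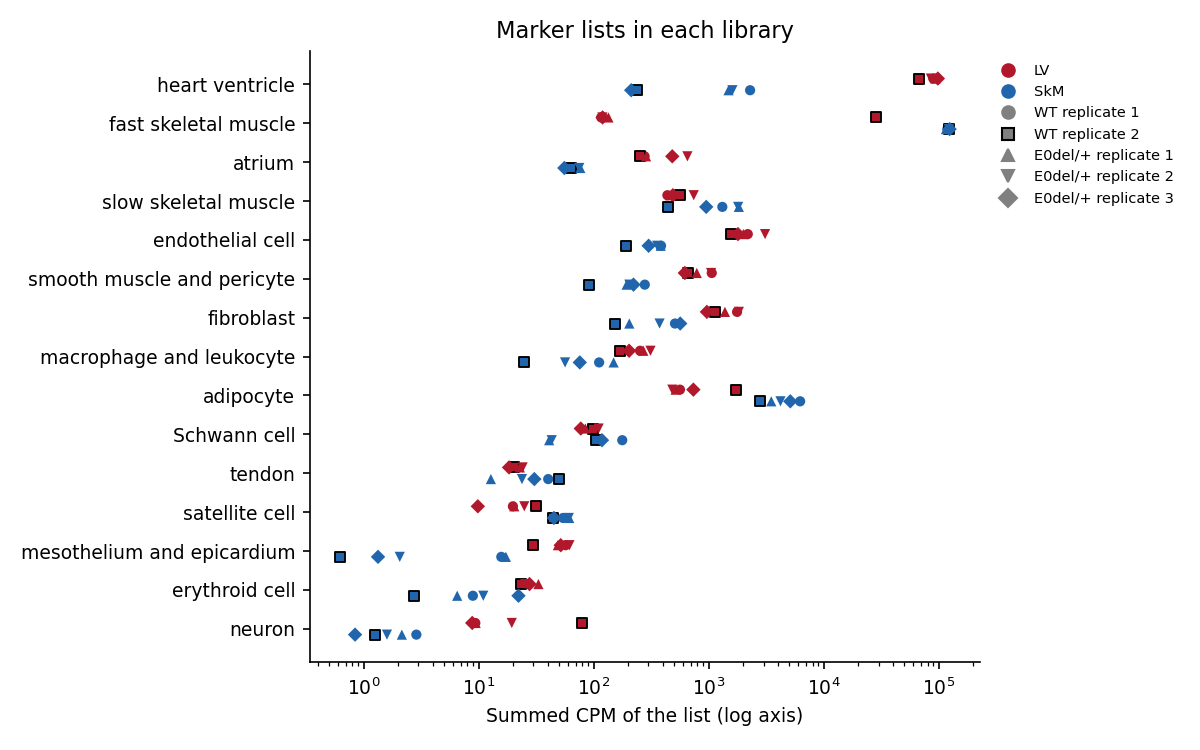
Summed CPM (log axis) of 15 marker lists in each of the 10 libraries, with colour for tissue and shape for mouse. The LV of WT replicate 2 (black outline) holds 28547 CPM of fast muscle markers, against 115576 to 124398 in SkM and 116 to 135 in the other LV libraries.

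The level of restricted genes in the other tissue was read by mouse, over those restricted with 4 pairs that had a mean of at least 50 CPM in their own tissue. Low levels in those 4 mice follow from how the genes were chosen. Over 198 such SkM-restricted genes, the median level in LV was 2.82% to 4.57% of that in the SkM of the same mouse, and 16.999% in WT replicate 2. Over 134 such LV-restricted genes the median level in SkM was 1.77% to 4.24% of that in LV, lowest in WT replicate 2 and E0del/+ replicate 3. Such levels hold real expression and any carry-over between tissues alike, and their parts were not tested.

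Whether the tissue difference was another one in E0del/+ than in WT mice was tested as an interaction of tissue and genotype. At an adjusted p under 0.05, edgeR called 0 of 13283 genes (0.00%), with 257 at an unadjusted p under 0.05, and DESeq2 called 0, with 252. With 4 pairs the WT group was WT replicate 1 alone, and edgeR called 0, with 155 at an unadjusted p under 0.05. Without WT replicate 1, the WT group was the single mouse whose LV library held skeletal muscle counts, and 134 genes were called, with 1391 at an unadjusted p under 0.05. In both of these fits the lone WT mouse is assumed to vary like the others. Ttn stood higher in SkM than in LV in all 5 mice of both genotypes.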

How the data were processed

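RNA of 5 LV and 5 SkM libraries was used. Per the submitters' processing notes, reads were aligned to mm10 with STAR, and DESeq2 was used in the study's own analysis. The counts are the authors' whole numbers of reads per gene, as deposited, and the deposited RPKM values are those counts scaled by the authors for gene length and library total. How reads with several places were counted is not given in the sources used here. Libraries were paired by mouse number, which the labels give to both tissues. Deviations from the tissue means correlated between partners at -0.0636 to 0.139 across mice, and the division into Xist and Y-linked counts was the same in both tissues of each mouse.

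Counts were tested with edgeR 4.0.16 in R 4.3.3 (quasi-likelihood F test, mouse as block, TMM, genes kept by filterByExpr for tissue, Benjamini-Hochberg adjustment), after the code was tested on simulated data. Tables and figures were made with Python 3.11.15, pandas 2.3.3, scipy 1.17.1 and matplotlib 3.10.9. Scaled RPKM was computed as described in the report. Alternatives were DESeq2 1.42.0, its size factors, total counts, other count filters, no block, other fold bounds and each mouse left out. Genes were named by rule: the 6 markers and Ttn, the 10 largest differences in each direction among genes of at least 50 CPM that moved the same way in every mouse, with 5 and with 4 pairs, the 10 most abundant genes of each tissue and the 10 shared genes with the most counts, the partners of the 33 pairs, and from each of 27 gene lists the 4 most abundant members and those called against the rest. Some genes under the rule are not reported here. Other genes, Xist and those named from the marker lists among them, were chosen after their values were seen. The members and lists were chosen with earlier results of these data known. Promoter windows came from RefSeq (GRCm38.p6). The 10054 genes with too few counts held 0.0519% to 0.208% of a library's counts and were left out.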

Additional observations from a re-analysis of the deposited data

Results flagged for a closer look

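Of 58 groups of libraries looked at, 8 held a library far from the others of its tissue. Chance would single out about 1 in 20 groups, but 7 of the 8 are overlapping values of the LV of WT replicate 2, whose skeletal muscle counts were already known, and are not independent. In the LV of WT replicate 2, Myh4 was at 2624, Actn3 at 834 and Pvalb at 692 scaled RPKM. The same library held 28547 CPM of fast skeletal muscle markers, 1744 CPM of adipocyte markers and 79.6 CPM of neuron markers, and 9.55% of its counts fell in SkM-restricted genes. In SkM, Mybpc3 was at 8.83 scaled RPKM in E0del/+ replicate 1, above the other 4 libraries. The causes were not tested.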

How the results depend on the processing

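Of the 8255 called genes, 95.6% were kept with DESeq2, 99.5% with DESeq2 size factors, 94.1% with no filter, 80.9% with at least 10 counts in every library (6676 of the 6962 still tested) and 71.0% with total counts, and 86.6% to 93.2% with a mouse left out. None was reversed but 233 with total counts. Without the block that paired libraries by mouse, 97.7% were kept, with 4269 genes higher in SkM and 4388 higher in LV, and no other count was changed by over 1.5 times. With total counts, 1590 genes were higher in SkM and 7881 in LV, 853 were LV-restricted, 554 graded towards SkM and 4016 towards LV. At least 10 counts in every library left 152 SkM-restricted and 169 LV-restricted genes, since fewer genes were tested, and no gene of the Hox and limb list. A bound of 16-fold gave 231 and 262, and a bound of 1.5-fold gave 2378 shared genes. With a mouse left out, 3516 to 3991 genes were higher in SkM, 3724 to 4211 in LV, 348 to 433 were SkM-restricted, 470 to 543 LV-restricted, 1225 to 1432 graded towards SkM, 2152 to 2303 graded towards LV and 4988 to 5805 shared. Genes called for tissue by genotype ran from 0 to 134, the latter without WT replicate 1, where the lone WT mouse is assumed to vary like the others.

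Total counts reversed Slc25a4 (-0.63), Hrc (-0.46), Hsp90ab1 (-0.39), Lmod3 (-0.0413), Tmod1 (-0.0529), Hk2 (-0.37), Trpm4 (-0.18), Aldh6a1 (-0.45), Acadsb (-0.13), Idh3a (-0.0356), Mef2d (-0.11), Rxrg (-0.0420), Hspa8 (-0.62), Nr3c1 (-0.0706), Npr2 (-0.64), Sgcb (-0.15), Cav3 (-0.18), Dysf (-0.29), Psmc3 (-0.23), Psmd3 (-0.22), Trim63 (-0.0997) and Nr1d2 (-0.23). Dag1 (-0.49), Neat1 (-0.30) and Hspb6 (-0.35) also turned negative, called on neither scale, and others of these genes were not called with TMM. The medians of the MEF2, SRF and TEAD factors (-0.11), the nuclear regulators (-0.51), the splicing regulators (-0.18), the chaperones (-0.35), the circadian clock (-0.0465) and the atrophy and autophagy genes (-0.64) were reversed by it too. The log2 ratio of the Schwann cell sum was -0.18 with total counts and 0.49 with TMM. The neuromuscular junction median was -0.0438 over genes with at least 10 counts. The median of the nuclear regulators ranged from -0.0800 to 0.162 with a mouse left out. These turns followed the shift of all genes or few members, and the cause was not tested beyond that.

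The libraries cannot show which scale is right, since no spiked RNA is described in the sources used here. SkM had the more counts and fewer genes with many, so that genes of low level were read with unequal precision. The libraries are unstranded, so overlapping and antisense genes are not told apart, and reads of near-identical copies, such as the myosin heavy chains, are not told apart either where the counting split them. The WT group has 2 mice, and 1 of them has the LV library with skeletal muscle counts. Bulk tissue does not divide cell number from RNA per cell.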

Other observations

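Along the chromosomes, 70 of 357 SkM-restricted genes (19.6%) and 98 of 491 LV-restricted genes (19.96%) lay next to a tested gene of the same class, in 42 and 56 adjacent pairs. Of all placed genes, 2.69% and 3.70% were of these classes. A neighbour on either side was counted, so these class shares are too low to serve as a chance rate. Whether such neighbours are more frequent than chance gives was not tested. The longest run was of 8 SkM-restricted genes from Hotair to Hoxc4 on chromosome 15. Another run, of 6 genes on chromosome 11 from Myh3 to Myh8, was the cluster of skeletal myosin heavy chains, 5 of them with a further transcript. On chromosome 14 Myh6 lay beside Mir208a, whose microRNA is made from an intron of Myh6.

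In 17 adjacent pairs the genes were of opposite restricted classes, a number not set against chance. On chromosome 7, Tnnt1 of slow skeletal troponin and Tnni3 of cardiac troponin lie 2332 bases apart and were SkM-restricted and LV-restricted. Tnni1 and Lad1 lie 7608 bases apart, and Serinc2 and Fabp3 33191 bases. These neighbours were chosen after their values were seen, and no cause was tested.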
